A study of Homo sapiens with 4 samples.

Results

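Receptor tyrosine kinases of glioma were followed in LN229 cells in which *SOX2* had been knocked down. The set holds 10 genes, namely *EGFR*, *ERBB2*, *ERBB3*, *PDGFRA*, *PDGFRB*, *KIT*, *MET*, *FGFR1*, *AXL* and *IGF1R*. They were found on the arrays by gene symbol, whatever their change, and are measured by 13 of the 33096 gene probes. The set itself was chosen with earlier results of these data known. LN229 is an established human glioblastoma line. The 4 arrays are 1-colour oligonucleotide arrays read by chemiluminescence, 2 with RNA of cells given a no-target control siRNA (mock knockdown) and 2 with RNA of cells given siRNA against *SOX2*, which encodes an HMG-box transcription factor of stem cells. Both groups were LN229 cells grown in DMEM, with fetal bovine serum by the study's methods. No agent beyond the siRNA and its transfection reagent is described. The methods describe the 2 arrays of a group as biological replicates with separate transfections.

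A receptor tyrosine kinase is a membrane protein that binds a growth factor outside the cell, pairs with another receptor molecule and phosphorylates itself and its partners on tyrosine inside the cell. Adaptor proteins that dock on these tyrosines pass the signal to RAS and MAP kinase, to PI3 kinase and AKT, and to STAT proteins. In glioblastoma *EGFR*, *PDGFRA* and *MET* are known for gene amplification, and *PDGFRA*, *KIT* and *KDR* lie side by side on chromosome band 4q12, which is amplified in some of these tumors.

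Of the 10 receptors, *PDGFRA* and *KIT* were lower after *SOX2* knockdown by more than 2-fold, the cutoff of the study's methods, and no receptor was higher by that much. The mean signal of *PDGFRA* after knockdown was 0.339 of the mock mean, with *SOX2* knockdown replicate 1 not above background. That of *KIT* was 0.371. These directions follow the sample labels and the lower *SOX2* signal on the knockdown arrays. They oppose the study's text, which names *PDGFRA* and *KIT* among genes up-regulated by the knockdown. The study's own supplementary list of changed genes holds lower values for both after knockdown, opposite to that text. The study reports that RT-PCR of the genes named in that text bore out its array data. That conflict, which lies within the study's own account, was not resolved here. *EGFR* was 1.48-fold higher and *ERBB3* was at 0.602 of mock. Both had arrays that did not overlap between the groups, as had 47.2% of all features kept. *MET* was not detected above background on any array. No receptor passed an adjusted p of 0.05 in limma's test over all features. *KDR*, the other receptor of 4q12, was at 0.439 of mock.

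The letters upstream of *PDGFRA*, *KIT* and *KDR* are shown because these neighbouring genes moved in the same direction. The lines below give the 250 bases before each start in RefSeq (build GRCh38.p14), read 5′ to 3′ on the strand of the gene. Capitals mark ACAAAG or ACAAT, core letters of motifs bound by SOX proteins, searched on both strands. The motifs share their first letters but cannot match at the same place.
PDGFRA first start, chr4:54229043-54229292, plus strand: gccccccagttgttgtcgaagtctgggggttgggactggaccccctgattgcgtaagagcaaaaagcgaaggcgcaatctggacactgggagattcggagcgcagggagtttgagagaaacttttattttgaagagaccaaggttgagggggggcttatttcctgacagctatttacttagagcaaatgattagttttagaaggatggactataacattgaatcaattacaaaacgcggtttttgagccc
PDGFRA second start, chr4:54233710-54233959, plus strand: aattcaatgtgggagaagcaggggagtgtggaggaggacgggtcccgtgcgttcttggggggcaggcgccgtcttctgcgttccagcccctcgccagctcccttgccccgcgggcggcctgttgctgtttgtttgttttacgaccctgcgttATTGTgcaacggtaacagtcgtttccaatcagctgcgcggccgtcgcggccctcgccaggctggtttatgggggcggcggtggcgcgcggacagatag
KIT, chr4:54657707-54657956, plus strand: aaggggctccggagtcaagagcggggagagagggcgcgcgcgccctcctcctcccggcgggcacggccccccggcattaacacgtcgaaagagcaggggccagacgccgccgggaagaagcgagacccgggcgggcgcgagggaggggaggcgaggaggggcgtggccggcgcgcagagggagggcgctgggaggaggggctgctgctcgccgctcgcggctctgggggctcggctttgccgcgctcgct
KDR, chr4:55125596-55125845, minus strand: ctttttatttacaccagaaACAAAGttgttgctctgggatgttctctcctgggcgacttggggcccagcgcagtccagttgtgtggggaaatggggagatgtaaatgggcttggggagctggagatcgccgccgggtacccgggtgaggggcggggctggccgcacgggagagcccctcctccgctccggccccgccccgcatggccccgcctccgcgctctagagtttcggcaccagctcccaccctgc
ACAAT was found once, before the second start of *PDGFRA*, and ACAAAG once, before *KDR*. Neither was found before the first start of *PDGFRA* or before *KIT*. Of all 35116 promoter windows of this length in the RefSeq table, 13.7% held ACAAAG, 24.6% held ACAAT and 33.7% held at least 1 of them. A match describes these letters only, and its absence says nothing of binding elsewhere. The study mapped *SOX2* binding regions in LN229 cells by ChIP-seq and derived a consensus of its own from them. Neither was compared with these windows.

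Signals are given as a fraction of the 75th percentile of the gene features of their array (the scaled signal), and a feature is the mean of the probes that share a gene identifier. The deposited signal-to-noise ratio (S/N) was over 3 for 63.5% to 68.9% of the probes of an array. To be compared, a feature needed an S/N over 3 on each array of 1 group or of both, which kept 18378 of 27739 features and 9 of the 10 receptors. Arrays correlated with each other at r = 0.978 to 0.991 over the features kept. Mock replicate 1 and *SOX2* knockdown replicate 2 deviated from their group means in the same direction, since the deviations of arrays with the same replicate number correlated at -0.499. The treatment label names SW620, a colon line, where the other labels name LN229. Of 8 glioma or neural stem markers 6 had S/N over 3 on all 4 arrays, as had 5 of 7 oligodendrocyte precursor markers and 3 of 10 colon epithelium markers (*VIL1*, *KRT8* and *KRT18*). Of the other colon markers, *CDX2* and *LGALS4* were over that S/N on both mock arrays, *CDX1* on 1 array of each group, *EPCAM* and *GPA33* on 1 array each, and *KRT20* and *CDH17* on none. *SOX9* and *MSI1* of the neural list were also over it on none.

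The targeted gene was read first. *SOX2* had a scaled signal of 0.454 and 0.682 after mock knockdown and of 0.204 and 0.145 after *SOX2* knockdown, so both knockdown arrays were below both mock arrays. S/N was 5.17 and 13.6 in mock and 3.17 and 3.06 after knockdown, close to the threshold. The ratio of the means was 0.308, and the log2 change was -1.69 (SE 0.28, 95% interval -2.45 to -0.93, n = 2 per group, adjusted p = 0.114 in limma). A mean over cells does not tell fewer cells with a transcript from less transcript per cell, here and for each gene that follows.

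**Figure D1:**
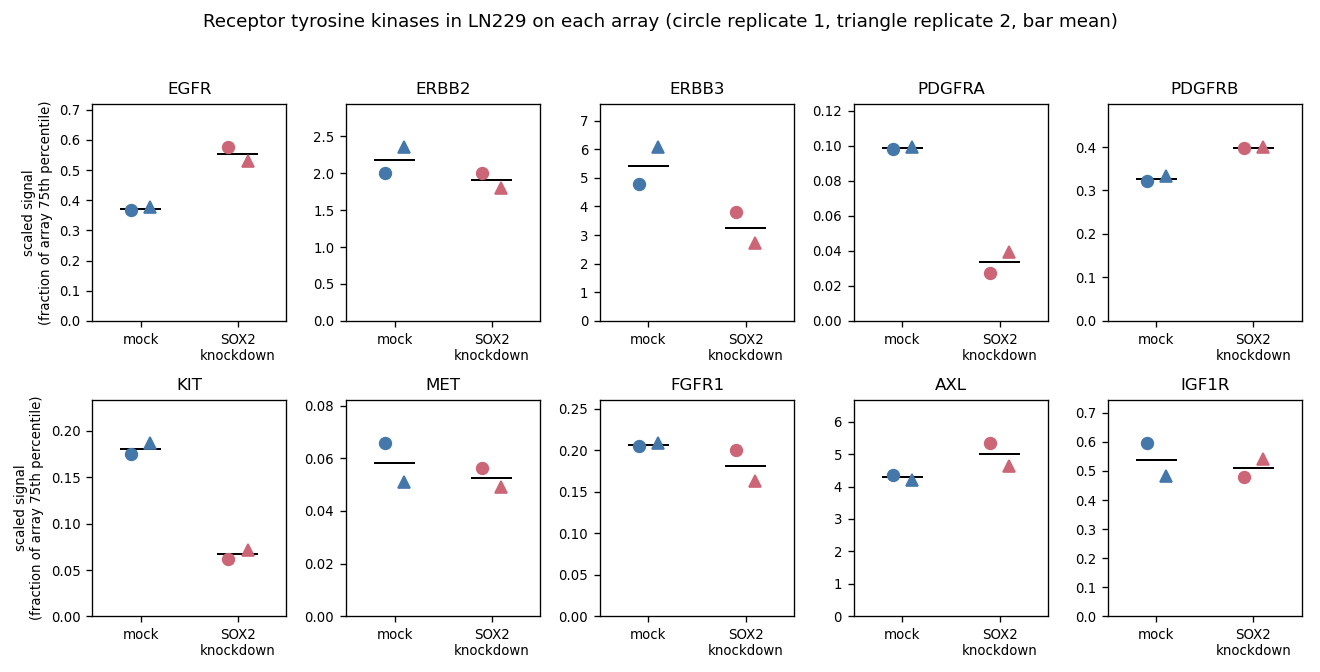
Scaled signal (fraction of the array's 75th percentile, linear axes from 0) of the 10 receptors on the 2 mock and 2 *SOX2* knockdown arrays, with circles for replicate 1, triangles for replicate 2 and bars for the means of 2. *PDGFRA* and *KIT* lie far below their mock values, at 0.339 and 0.371 of the mock mean, while *MET* and *IGF1R* overlap between the groups. Each panel has its own axis, since the signals of different probes are not comparable.

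Of the 9 receptors kept, 2 differed by more than 2-fold, where 2.38% of all features kept did. Both were lower, against 0.909% of features that were over 2-fold lower and 1.47% that were over 2-fold higher. The set was chosen with earlier results of these data known, and the study's text names *PDGFRA* and *KIT* as changed. These shares are therefore no test of the set. *PDGFRA* was also kept only through the mock arrays, where it is high. Among features with a mock mean between 0.05 and 0.2, a band that holds *PDGFRA* and *KIT* and was chosen after their values were seen, 1.49% were over 2-fold lower. The groups did not overlap for 8 of the 9 receptors, 5 of them lower and 3 higher. Over all features kept, 47.2% did not overlap, 25.7% lower and 21.6% higher, so a lack of overlap between 2 and 2 arrays is common here. An unadjusted p under 0.05 was found for 4 receptors (*EGFR*, *ERBB3*, *PDGFRA* and *KIT*) and for 17.2% of features, and an adjusted p under 0.05 for no receptor and for 0% of features. The median log2 change of the 9 receptors was -0.19, beside 0.00 over all features kept. For 6 of the 9 the means of the groups were within 1.5-fold of each other.

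Among the ERBB receptors, *EGFR*, the receptor of EGF and TGF-alpha, was higher after knockdown. It read 0.366 and 0.379 in mock and 0.575 and 0.531 after knockdown. Replicates lay close together in both groups, and both knockdown arrays were above both mock arrays. The log2 change was 0.57 (SE 0.13, 95% interval 0.23 to 0.91, n = 2 per group), with an unadjusted p of 0.00851 and an adjusted p of 0.154 in limma. S/N was between 15.9 and 49.4, so the probe was well above background on all arrays. With the background correction called normexp, run on the scanner's raw intensity with an offset of 50 added, the log2 change was 0.18.

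*ERBB3* binds neuregulins, has little kinase activity of its own and signals mainly through PI3 kinase when paired with *ERBB2*. Its scaled signal was 4.77 and 6.06 in mock and 3.80 and 2.71 after knockdown. All 4 arrays were far above background, with S/N from 58.8 to 105, and the groups did not overlap, but the replicates of each group differed by 0.35 and 0.49 on the log2 scale. On mock replicate 2, the highest of the arrays, the flag of the probe was 64 and not 0. The log2 change of *ERBB3* was -0.74 (SE 0.23, 95% interval -1.37 to -0.12, adjusted p = 0.234 in limma), and leaving out 1 knockdown array took it to -0.50 (replicate 2 left out) or -0.99 (replicate 1 left out). Leaving out 1 mock array took it to -0.57 (the flagged replicate 2 left out) or -0.92 (replicate 1 left out).

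*ERBB2*, the partner receptor with no known ligand of its own, was 2.01 and 2.35 in mock and 2.01 and 1.80 after knockdown. The lower mock array and the higher knockdown array were nearly equal. The log2 change was -0.19 with a 95% interval of -0.60 to 0.21 (adjusted p = 0.624), so a difference beyond the spread of the replicates was not found, and a ratio down to 0.662 lies within that interval.

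*PDGFRA* encodes the alpha receptor for platelet-derived growth factor and marks oligodendrocyte precursor cells. Its scaled signal was 0.0979 and 0.0990 in mock and 0.0275 and 0.0392 after knockdown. Mock replicates were nearly identical, and both knockdown arrays were lower. S/N was 10.8 and 7.36 in mock but 0.94 and 3.85 after knockdown, so on *SOX2* knockdown replicate 1 the signal was not above background and its flag was not 0. The gene was kept only through the mock arrays, where it is high.

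The fitted log2 change of *PDGFRA* was -1.58 (SE 0.21, 95% interval -2.15 to -1.02, n = 2 per group), with an unadjusted p of 0.0011 and an adjusted p of 0.101 in limma. Without *SOX2* knockdown replicate 1, which leaves 1 knockdown array assumed to vary like the others, it was -1.33. A floor of 0.05, above both knockdown values, brought it to -0.98, and normexp to -0.80.

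*KIT*, the receptor of stem cell factor, was 0.175 and 0.187 in mock and 0.0622 and 0.0719 after knockdown. Here S/N was over 3 on all arrays, at 11.7 and 8.66 in mock and 3.67 and 6.80 after knockdown. The distance between the groups was many times that between replicates, which differed by 0.09 and 0.21 on the log2 scale. The log2 change of *KIT* was -1.43 (SE 0.14, 95% interval -1.81 to -1.06), with an unadjusted p of 3.21e-04. Its adjusted p of 0.082 was the smallest of the 9 receptors and the only one under 0.1. Normexp gave -0.80.

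*PDGFRB*, the beta receptor for platelet-derived growth factor, typical of pericytes and fibroblasts, went the other way from *PDGFRA*. It read 0.321 and 0.334 in mock and 0.398 and 0.399 after knockdown, without overlap. The log2 change was 0.28 (95% interval -0.04 to 0.60, adjusted p = 0.344), a difference of 1.22-fold.

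**Figure D2:**
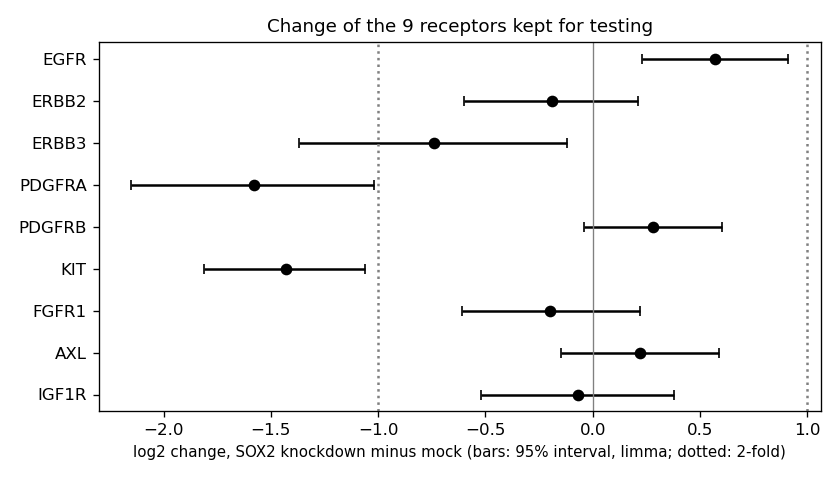
The log2 change (*SOX2* knockdown minus mock) of the 9 receptors kept, with 95% intervals from limma over 2 arrays per group and dotted lines at a 2-fold difference. The intervals of *PDGFRA* (-2.15 to -1.02) and *KIT* (-1.81 to -1.06) lie lowest, that of *PDGFRA* resting in part on an array where its S/N was 0.94 and its change reaching only -0.98 with a floor of 0.05, while those of *EGFR* and *ERBB3* exclude 0 and the other 5 include 0, without adjustment for the number of features tested.

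How *PDGFRA*, *KIT* and *KDR* compared with the genes around them was read from the order of protein-coding genes in RefSeq. No protein-coding gene lies between *PDGFRA* and *KIT*, and *KDR* is the next one after *KIT*. *KDR*, a receptor of vascular endothelial growth factor, was 0.111 and 0.134 in mock and 0.0521 and 0.0556 after knockdown, again without overlap. S/N was 9.19 and 9.46 in mock and 6.94 and 3.07 after knockdown. Its log2 change was -1.18 (SE 0.15, 95% interval -1.59 to -0.77, adjusted p = 0.101 in limma), and -0.68 with normexp.

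The 5 protein-coding genes on each side of these receptors were all on the array. Of these 10 neighbours 8 were kept and 0 differed by more than 2-fold. Their ratios to mock ran from 0.76 for *SCFD2* to 1.33 for *CHIC2*, and 5 did not overlap between the groups, where 47.2% of all features did not. *GSX2*, a homeobox gene next to *PDGFRA*, was 0.523 and 0.283 in mock and 0.366 and 0.502 after knockdown, with overlap and a log2 change of 0.16 (SE 0.36). On the far side of *KDR*, *SRD5A3*, an enzyme of dolichol synthesis, was at 0.803 of mock. These ratios are a description with no test, since *PDGFRA*, *KIT* and *KDR* were known to be low when the region was chosen.

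**Figure D3:**
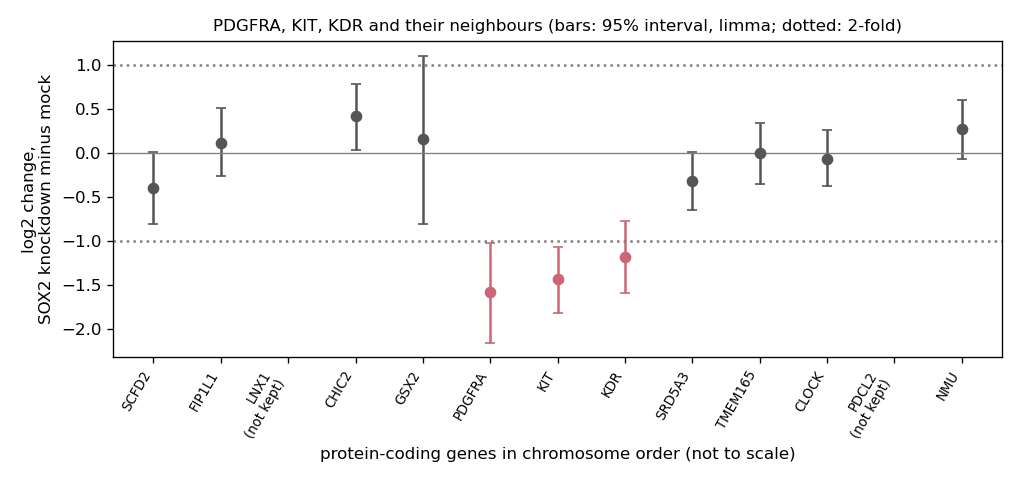
The log2 change (*SOX2* knockdown minus mock) of *PDGFRA*, *KIT* and *KDR* (red) and of the 5 protein-coding genes on each side (grey), in chromosome order and not to scale, with 95% intervals from limma. The red points lie at -1.58, -1.43 and -1.18, and the 8 neighbours that were kept lie between -0.39 and 0.42.

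*AXL*, the receptor of GAS6, was 4.36 and 4.20 in mock and 5.34 and 4.64 after knockdown. Both knockdown arrays were higher, but the replicates of that group were almost as far apart as the groups. The log2 change of *AXL* was 0.22 with a 95% interval of -0.15 to 0.59 (adjusted p = 0.524).

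*MET*, the receptor of hepatocyte growth factor, read 0.0658 and 0.0509 in mock and 0.0564 and 0.0490 after knockdown. Its S/N was between 1.96 and 2.86, under 3 on all 4 arrays, and the groups overlapped. The feature was not kept and has no fold or test, and a difference was not detectable at this signal.

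*FGFR1*, a receptor of fibroblast growth factors, has 3 probes. Their mean was 0.205 and 0.209 in mock and 0.20 and 0.163 after knockdown, with a log2 change of -0.20 (SE 0.15, adjusted p = 0.626). The mean is carried by probe 188471, which had S/N over 30 and overlapped between the groups at 0.893 of mock. Probe 217844 was at 0.685 of mock, a value set by *SOX2* knockdown replicate 2, where its S/N was 0.85. Probe 221237 was high on mock replicate 1 (0.129) and *SOX2* knockdown replicate 2 (0.0973) and low on the other arrays (0.0552 and 0.0549).

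*IGF1R*, the receptor of insulin-like growth factors, has 2 probes that moved in opposite directions. Probe 159991 read 0.612 and 0.624 in mock and 0.568 and 0.497 after knockdown, a ratio of 0.862 without overlap. Probe 186013 read 0.614 and 0.366 in mock and 0.416 and 0.617 after knockdown, a ratio of 1.05 with overlap. It was high on the same pair of arrays as the third *FGFR1* probe, the pair whose deviations ran together over the features kept. The mean of both *IGF1R* probes had a log2 change of -0.07 (SE 0.17, adjusted p = 0.912), and its sign turned without mock replicate 1 (0.08) or without *SOX2* knockdown replicate 1 (0.02).

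**Figure D4:**
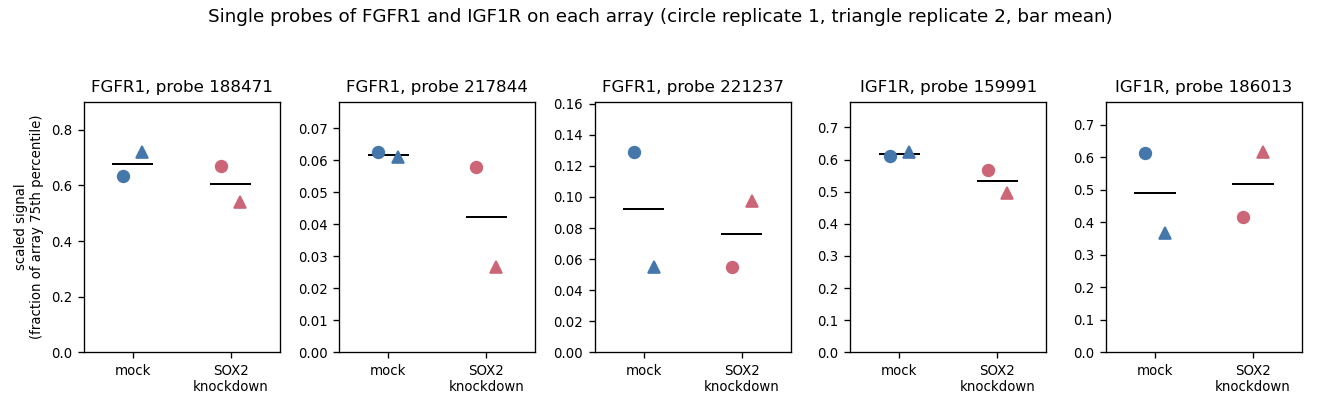
Scaled signal (fraction of the array's 75th percentile, linear axes from 0) of the 3 *FGFR1* and 2 *IGF1R* probes on each array, with circles for replicate 1, triangles for replicate 2 and bars for the means of 2. Probes 221237 and 186013 are high on mock replicate 1 and *SOX2* knockdown replicate 2, while probe 159991 is lower on both knockdown arrays.

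The ligands of the receptors past 2-fold were read next. *KITLG*, which encodes stem cell factor, the ligand of KIT, was 0.170 and 0.137 in mock and 0.340 and 0.310 after knockdown. Both knockdown arrays were higher, with S/N of 7.24 and 6.11, but S/N was 2.70 and 1.60 in mock, so there is only a bound there. With the mock signals raised to the level of an S/N of 3, *KITLG* was 1.47-fold higher after knockdown, a value with no error attached. The gene was kept only through the knockdown arrays, where it is high. The measured signals themselves gave a ratio of 2.12 (log2 change 1.09, SE 0.16, adjusted p = 0.104 in limma), which is no bound. With normexp the log2 change was 0.17.

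The ligands of the PDGF receptors changed less. *PDGFA*, with S/N of 85 or more, was 34.1 and 34.3 in mock and 32.7 and 29.4 after knockdown (log2 change -0.14, adjusted p = 0.695). *PDGFC* had a log2 change of -0.13 (adjusted p = 0.736). *PDGFD*, which binds mainly the beta receptor, was 0.225 and 0.243 in mock and 0.174 and 0.157 after knockdown, lower without overlap (log2 change -0.50, SE 0.13, adjusted p = 0.192). *PDGFB* was not kept, as its S/N was over 3 on 1 array of each group.

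Of 11 ERBB ligands 10 were on the array, 7 were kept and 1 was over 2-fold higher. That gene was *EREG*, which encodes epiregulin, a ligand of EGFR. It read 0.0417 and 0.0170 in mock and 0.0651 and 0.0703 after knockdown, a log2 change of 1.35 (SE 0.45, adjusted p = 0.256). S/N on mock replicate 2 was 1.38, so the gene was kept only through the knockdown arrays, where it is high. The replicates in mock differed more than those of any receptor kept, and normexp turned the log2 change to -0.02. Without mock replicate 1 it was 2.0, and without mock replicate 2 it was 0.70 and the count over 2-fold was 0. The median over the 7 ligands was 0.26. *NRG1*, a ligand of ERBB3 and singled out after its value was seen, had the largest log2 change of the others at 0.45 (SE 0.13, adjusted p = 0.21). The study names *NRG1* among its *SOX2*-regulated genes with a bound region, by its 2-fold cutoff. Here its ratio was 1.36, read from the brightest feature only.

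Of 20 ligands of MET, FGFR1, AXL and IGF1R 10 were kept and 0 were over 2-fold, with a median log2 change of 0.10. *HGF*, the ligand of MET, was under an S/N of 3 on all arrays, as was its receptor. Of the 8 IGF-binding proteins and *IGF2R*, 7 were kept and 0 were over 2-fold. Their median log2 change was -0.34, and 4 (*IGFBP3*, *IGFBP4*, *IGFBP6* and *IGFBP7*) had an unadjusted p under 0.05, all lower, with adjusted p from 0.136 to 0.283, where 17.2% of all features had such an unadjusted p. These proteins bind insulin-like growth factors outside the cell. The values of *IGFBP4*, also named after they were seen, came closest to 2-fold, at 0.241 and 0.313 in mock and 0.162 and 0.121 after knockdown, a ratio of 0.511.

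Of 35 other receptor tyrosine kinases 19 were kept, with a median log2 change of -0.07. One, *KDR*, was over 2-fold lower. A feature annotated to *ROS1* was over 2-fold higher (log2 change 1.01, SE 0.13, adjusted p = 0.0988 in limma). Its only probe is annotated to both *ROS1* and *GOPC*, a neighbouring gene for a Golgi protein, so the value cannot be given to *ROS1*.

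Downstream of the receptors, 42 of 43 adaptor and relay genes were on the array, 37 were kept and 2 were over 2-fold higher (1.47% of all features were), with a median log2 change of -0.04. That count was 0 with median scaling, the signal as deposited or normexp, and 1 when any array was left out. *GAB1*, a docking protein of EGFR and MET, was 0.201 and 0.167 in mock and 0.366 and 0.371 after knockdown (log2 change 1.01, SE 0.15, adjusted p = 0.103). Its second probe, with S/N from 2.23 to 4.21 and not kept, went the other way at 0.747 of mock. *CRKL*, a docking adaptor, was 2.05-fold higher (log2 change 1.06, SE 0.34, adjusted p = 0.238), with S/N of 1.44 on mock replicate 1. *CRKL* was therefore kept only through the knockdown arrays, where it is high. Its log2 change was 0.02 with normexp, 0.29 with a floor of 0.05, and 0.68 to 1.45 when 1 array was left out (lowest without mock replicate 1, highest without mock replicate 2). Of 22 genes listed as negative regulators of the receptors or their signal, a mixed list, 17 were kept and 0 were over 2-fold, with a median of 0.06.

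The 12 immediate targets of receptor signalling were all kept, and 1 was over 2-fold higher, with a median log2 change of -0.01. That gene was *VEGFA*, which encodes the ligand of KDR. It read 0.178 and 0.253 in mock and 0.559 and 0.453 after knockdown (log2 change 1.24, SE 0.23, adjusted p = 0.127). Without mock replicate 1 its log2 change was 0.99 and the count over 2-fold was 0, as it was with normexp (0.77). Of the list, 7 had an unadjusted p under 0.05, 4 higher and 3 lower, beside 17.2% of all features.

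**Figure D5:**
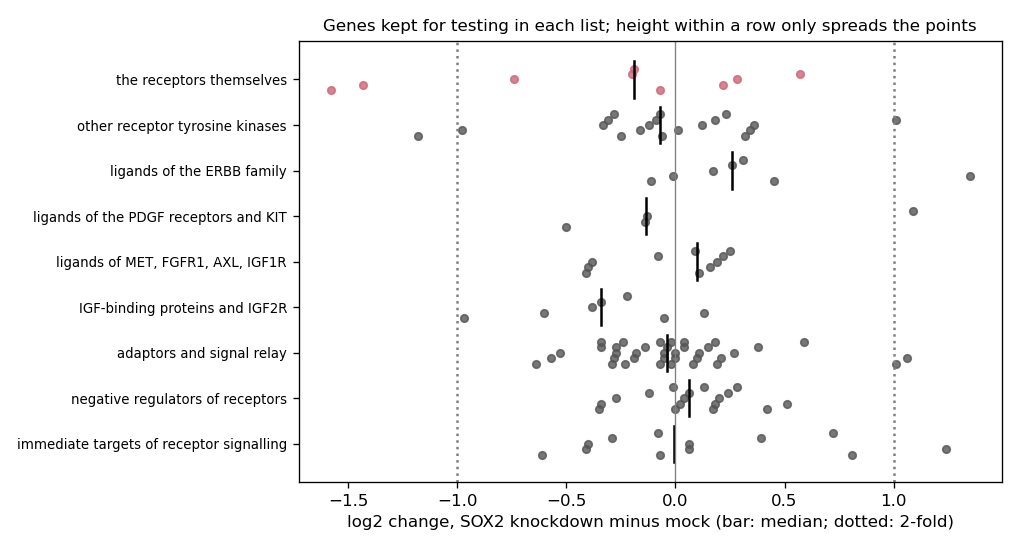
The log2 change (*SOX2* knockdown minus mock) of each gene kept, by list, with bars for the medians and dotted lines at a 2-fold difference. The medians run from -0.34 for the IGF-binding proteins to 0.26 for the ERBB ligands, and the receptors (red) have the points farthest to the left, *PDGFRA* at -1.58 and *KIT* at -1.43. The point of *ROS1* among the other receptor tyrosine kinases comes from the probe shared with *GOPC*.

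*PDGFRA* is also 1 of the 7 oligodendrocyte precursor markers, of which 6 were kept and 2, itself included, were over 2-fold lower (0.909% of all features kept were). The other was *CSPG4*, the NG2 proteoglycan, at 6.61 and 7.52 in mock and 3.01 and 2.75 after knockdown (log2 change -1.29, SE 0.14, adjusted p = 0.086). The sum of the list's scaled signals, which adds probes of unlike brightness, was 16.8 and 19.1 in mock and 12.8 and 11.5 after knockdown. Without *CSPG4* it was 10.2 and 11.6 in mock and 9.75 and 8.73 after knockdown, and its part in the result for *PDGFRA* was not tested. *OLIG2*, a transcription factor of these cells, had a log2 change of 0.42 (SE 0.13, adjusted p = 0.226), *NKX2-2* one of -0.42 (SE 0.12, adjusted p = 0.207) and *SOX10* one of -0.19 (SE 0.21, adjusted p = 0.767). That of *OLIG1* was 0.03 (SE 0.19, adjusted p = 0.972 in limma). No marker of the list was under an S/N of 3 on every array. Of the glioma or neural stem list, *FABP7*, a fatty acid-binding protein of radial glia, was the only gene over 2-fold, at 0.492 of mock (log2 change -1.02, SE 0.14, adjusted p = 0.101).

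The adjusted p-values of the low receptors depend on the scaling. When arrays were scaled to their median, limma's adjusted p was 2.31e-06 for *PDGFRA*, 3.29e-05 for *KIT* and 0.00135 for *KDR*, and 669 features passed 0.05 where 0 did with the 75th percentile. The prior degrees of freedom that limma estimated for the variance were infinite in that fit and 2.41 with the 75th percentile, and the log2 changes themselves hardly moved, to -1.62, -1.47 and -1.21.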

How the data were processed

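Total RNA of 4 LN229 samples was hybridised to 1-colour arrays. The authors deposited scanner tables with a normalized intensity and a signal-to-noise score per probe, and a table of ratios to each gene's median. Of the deposited ratios 100% lay within 5% of the signal times a constant per array, divided by the larger of 10 and the probe's median, with a floor of 0.01. The scanner software's version and the meaning of its flags are not given in the sources used here.

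Control features and 210 probes with a flag of 5000 or more were left out. Probes of 1 gene identifier were averaged, divided by the array's 75th percentile, floored at 0.01 and taken to log2. Changes of 2-fold were read from the linear means. Log2 changes were tested with limma 3.58.1 (R 4.3.3; lmFit and eBayes, two-sided, no block) with Benjamini-Hochberg adjustment over the features kept, after a test on simulated data. Symbols were matched through RefSeq synonyms (GRCh38.p14), which found all 10 receptors, and a symbol with several features was read from the brightest. *EPGN* and *SOS2* were not matched. The files name no genome build. The number of arrays limits the precision.

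The receptors and lists were chosen with earlier results of these data known. Named were the 10 receptors, *SOX2*, ligands of receptors past 2-fold, and genes past 2-fold in the other lists, at most 5 per list and direction. Alternatives covered scaling, background, floor, filters, probes, fold cutoff, variance model, a replicate block and leaving out each array. The crossed pairing, the bound for *KITLG* and the marker sum without *CSPG4* were added after seeing the data.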

Additional observations from a re-analysis of the deposited data

How the results depend on the processing

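The direction of the change was kept in 178 of 180 alternatives computed for the receptors, and turned only for *IGF1R*, which ran from -0.22 to 0.08 when 1 array was left out (0.08 and 0.02 on leaving out replicate 1 of mock or of knockdown). The S/N filters, variance models and replicate block leave the log2 change itself as it is. In those alternatives the direction could not turn, so the count overstates how far it was tried. *EREG* turned to -0.02 with normexp. Receptors over 2-fold numbered 2, but 0 with normexp or a 3-fold cutoff and 1 (*KIT*) with a floor of 0.05 or with S/N over 3 on all 4 arrays. They numbered 2 whichever array was left out. Receptors whose groups did not overlap numbered 8, against 6 with median scaling, the signal as deposited or the authors' table. With normexp, quantile scaling or cyclic loess scaling they numbered 7. Features over 2-fold numbered 438, against 176 with normexp, 288 with a floor of 0.05, 1055 with no S/N filter, 245 with S/N over 3 on all 4 arrays, 1812 at 1.5-fold, 94 at 3-fold, and 622 to 935 when 1 array was left out (935 and 676 on leaving out mock replicates 1 and 2, 888 and 622 on leaving out knockdown replicates 1 and 2). Features past an adjusted p of 0.05 numbered 0, against 669 with median scaling, 650 with the signal as deposited, 639 with the authors' table, 240 with a variance trend and 3 with the all-array S/N filter. Of features over 2-fold, 61.9% were higher, against 51.9% with no S/N filter and 72.6% without *SOX2* knockdown replicate 1.

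Same-numbered arrays did not deviate together (correlation -0.499), and a replicate block gave 0 features past an adjusted p of 0.05, with 0.256 for both *PDGFRA* and *KIT*. The crossed pairing also gave 0. Normexp differed from the main processing in its input, the raw intensity, and in its added offset of 50. An added constant makes the fold changes of low signals smaller by construction. *PDGFRA*, *KIT* and *KDR* lay at low signal, and how much of their smaller changes with normexp came from the offset was not tested.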
